A study of Mus musculus with 12 samples.

Results

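The genes described here were germ cell genes of the fetal ovary that stood at a low level in the fetal testis and that lost much of their ovarian level in double mutant ovaries. The starting list was the female germ-cell-specific list of the study, 360 genes, of which 345 were on the E14.5 arrays used here. The list had been selected on separate arrays of an earlier stage. It required a 1.5-fold difference between ovaries and testes and another between gonads with and without germ cells. A sex difference was thus already part of the choice of the list. A gene was kept when its mean log2 level in control ovaries exceeded that in control testes by at least 1 and when at least 0.5 of that difference was lost in the double mutants (DKO). *Stra8* and other genes of the meiotic and oocyte programmes, 23 in all, were set aside by name and are not described here. Of the remaining 322 genes, 39 differed between the sexes by less than 1, 60 lost less than 0.5 of the difference, and 223 met both conditions. The arrays held 28867 genes in all.

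RNA of whole gonads at E14.5 was hybridized to 12 single-colour Agilent arrays, 3 per group, with 1 sample per array, all taken from litters whose dams had been given tamoxifen on E9.5 and again on E10.5. Control testes were *Smad4* flox/+ with *StellaMerCreMer*. Control ovary 1 was *Smad4* flox/+ with *StellaMerCreMer*, control ovary 2 was *Smad4* flox/+ without it, and control ovary 3 was *Smad4* flox/flox without it, and all controls were *Stra8* +/-. *Smad4 (Stella)* ovaries were *Smad4* flox/flox with *StellaMerCreMer* and *Stra8* +/-, and DKO ovaries differed from them in being *Stra8* -/-. In this line the tamoxifen-dependent Cre is driven by the regulatory elements of *Stella*, a germ cell gene, and its efficiency varies between embryos, whereas *Stra8* is lost in every cell. The genetic background was mixed. *Stra8* single mutants were not analysed here, so that the loss of *Stra8* is seen only in addition to the loss of *Smad4*.

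When XX germ cells enter the female pathway they start meiosis and switch on an oocyte programme at the same time. Retinoic acid induces STRA8, a transcriptional regulator needed for premeiotic DNA replication and for the meiotic genes, and BMP ligands from the somatic cells act on germ cells through SMAD proteins that need SMAD4 as a partner. XY germ cells of the same age do neither and enter mitotic arrest. The members include genes of recombination, RNA control, cell cycle, metabolism and antigen presentation.

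The tissue was checked first. Markers of pregranulosa cells, the supporting cells of the ovary, passed the test in 0 of 7 genes between any 2 of the 3 kinds of ovary, and the summed level of 7 Sertoli cell markers was 1.0 to 1.45 in the ovaries against 6.08 to 6.34 in the testes, on the log2 scale relative to each array. Germ cells were present in each group. *Ddx4*, a germ cell RNA helicase, differed from control ovaries by -0.25 in *Smad4 (Stella)* (adjusted p = 0.387, limma) and by 0.14 in DKO ovaries (adjusted p = 0.561, limma), and the summed level of 7 genes of germ cells of both sexes was 6.11 to 6.35 in control, 5.86 to 6.05 in *Smad4 (Stella)* and 6.16 to 6.57 in DKO ovaries. This sum follows its brightest genes, and 4 of the 7 genes were called in DKO against control ovaries in both directions. *Tdrd1*, *Tdrd9* and *Tdrd12*, Tudor-domain proteins of the piRNA pathway, rose by 1.38, 2.46 and 2.25, and *Tex15* fell by 1.45 (adjusted p = 0.00479, 6.55e-05, 0.000298 and 0.000447, limma), so that these markers do not measure germ cell content evenly. In whole gonads, fewer germ cells and less RNA per germ cell cannot be told apart. *Smad4* itself differed by -0.03 between *Smad4 (Stella)* and control ovaries on the log2 scale (adjusted p = 0.910, limma), and since somatic cells keep the gene, this whole-gonad value does not check its deletion. *Stra8* RNA stood at 6.71, 6.16 and 6.46 in control ovaries, at 6.34, 6.41 and 6.28 in *Smad4 (Stella)* ovaries and at 5.61, 5.28 and 5.38 in DKO ovaries, so that a transcript was still detected in the DKO ovaries.

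Levels are given throughout as log2 of the processed spot intensity minus the 75th percentile of the array, so that 0 is the 75th percentile of that array and a difference of 1 is 2-fold. The level of one gene is not set against that of another, since probes differ in brightness.

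The values that chose the members are a description and were not tested. From control to DKO ovaries the 223 members fell by a median of 1.76 on the log2 scale, with a range from -6.12 to -0.55, and control testes minus control ovaries had a median of -2.08. The share of the sex difference lost in DKO ovaries had a median of 83.1%, with a highest value of 169%. This share was under 75% in 86 members and between 75% and 100% in 94, and in the other 43 the DKO mean lay below the testis mean. *Ube2a* and *Opn3*, with sex differences of 1.03 and 1.04, lay just inside the first condition, and *Iqsec1* and *Angptl6*, with 0.99 and 0.96, just outside. *Hccs* lost 0.514 of the difference and was kept, whereas 2310010J17Rik and 4933406J08Rik lost 0.4998 and 0.4998 and were not.

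**Figure D1:**
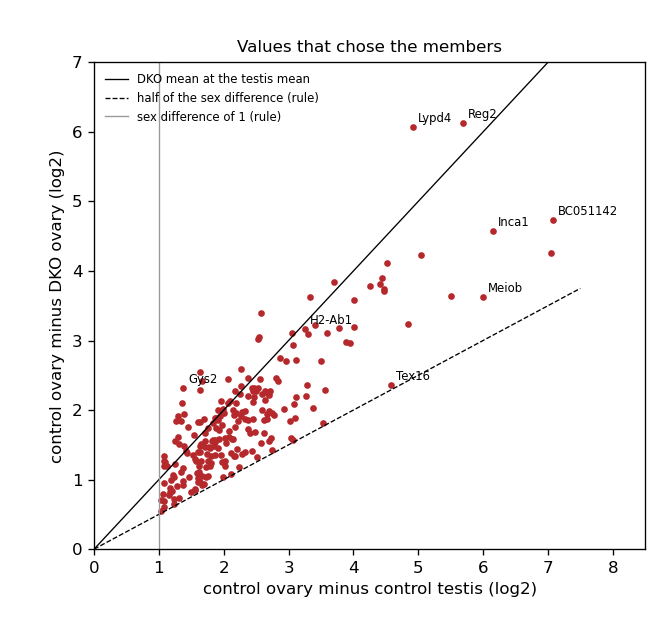
Control ovary minus control testis (x axis) against control ovary minus DKO ovary (y axis), both as differences of group means on the log2 scale, with 1 point for each of the 223 members. Points above the solid line, 43 in number, had a DKO mean below the testis mean, and the dashed line and the grey line are the conditions that chose the members.

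The deepest falls were those of *Reg2*, *Lypd4*, BC051142 and *Inca1*. *Reg2*, a secreted C-type lectin, stood at 0.02, 1.11 and 0.45 in control ovaries, at -2.08, -0.15 and 0.66 in *Smad4 (Stella)* ovaries, at -4.94, -6.38 and -5.47 in DKO ovaries and at -4.69, -5.31 and -5.50 in testes. *Lypd4*, a surface protein of the Ly6 family, stood at 1.56, 1.51 and 1.25 in control ovaries, at 0.39, 1.21 and 0.72 in *Smad4 (Stella)* ovaries, at -4.92, -6.57 and -2.40 in DKO ovaries and at -3.83, -2.90 and -3.68 in testes. The DKO and testis arrays of both genes overlapped, while every *Smad4 (Stella)* array was far above every DKO array. *Reg2* was well above background on only 1 of 3 DKO arrays and *Lypd4* on 2 of 3. The depth of both falls and the overlap with testes therefore rest in part on values near background. BC051142 stood at -1.03, -0.03 and -0.39 in control ovaries and at -5.34, -5.03 and -5.28 in DKO ovaries, where it was well above background on 2 of 3 arrays. In the testes BC051142 was not well above background on any of 3 arrays, which gives at least 40.7-fold more in control ovaries than in testes. *Inca1*, which encodes an inhibitor of CDK2 with cyclin A1, fell from 1.67, 2.11 and 1.81 in control ovaries to -3.04, -2.95 and -2.14 in DKO ovaries, and was still 1.58 above the testis mean.

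All 223 members had a probe that was well above background throughout 1 group or more, and 222 of them were above background on all 3 control ovary arrays, which the choice of members favours. In DKO ovaries 7 members, *Tgm1*, *Ces5a*, *Zcwpw2*, *Gm711*, *Efcab5*, *Nxnl1* and *Adam22*, did not rise well above background on a single array. For these the fall is a bound, from at least 13.3-fold for *Tgm1*, a transglutaminase, to at least 1.61-fold for *Adam22*. In testes this held for 13 members.

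The *Smad4 (Stella)* arrays took no part in choosing the members, although the control ovary arrays did, which favours a difference below 0. In these ovaries the members were slightly lower, by much less than in DKO ovaries. The difference between *Smad4 (Stella)* and control ovaries had a median of -0.45 over members (quartiles -0.57 and -0.29, range -1.23 to 0.17) beside -0.02 over the 18657 genes tested, and the mean was lower for 215 of 223 members. For single genes the difference rarely passed the test: 1 member was called lower and 0 higher (limma, adjusted p under 0.05 over all genes and at least 1.5-fold), where 0.145% of all genes tested were called lower and 0.134% higher. At an unadjusted p under 0.05, 121 members (54.3%) were lower and 0 were higher, where 11.3% of all genes tested were lower and 8.37% higher. By size alone, 48 members had a mean at least 1.5-fold lower, 21.5% of the members beside 6.71% of all genes tested. Every *Smad4 (Stella)* array lay below every control ovary array for 130 members, or 58.3%, beside 15.6% of all genes tested. All genes tested include those of somatic cells, whereas the members are germ cell genes. In this comparison the 60 list genes that lost less than 0.5 of the sex difference had a median of -0.27. The 7 genes of germ cells of both sexes had a median of -0.25. Whether the members fell beyond other germ cell genes was not tested.

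The 3 *Smad4 (Stella)* ovaries were not alike. The median of the members relative to the control ovary mean was -0.64 in ovary 1, -0.23 in ovary 2 and -0.45 in ovary 3, whereas the control ovaries lay at -0.06, 0.07 and -0.02 and the DKO ovaries at -1.69, -1.83 and -1.66. At least 1.5-fold below the control mean were 57.4% of members in *Smad4 (Stella)* ovary 1, 6.28% in ovary 2 and 28.3% in ovary 3, beside 98.2% to 99.6% in the DKO ovaries. The medians of the DKO ovaries were all below those of the *Smad4 (Stella)* ovaries. Without *Smad4 (Stella)* ovary 1, 76 members were lower at that unadjusted p, 75 of them among the 121, where 9.18% of all genes tested were, and the median was -0.34. The part of Cre efficiency in this spread was not tested. The 3 *Smad4 (Stella)* ovaries were on slide 3 with DKO ovary 3, whereas control ovaries were on slides 1 and 2, so that no slide held both groups and the slide is separated from the genotype only through the DKO arrays.

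**Figure D2:**
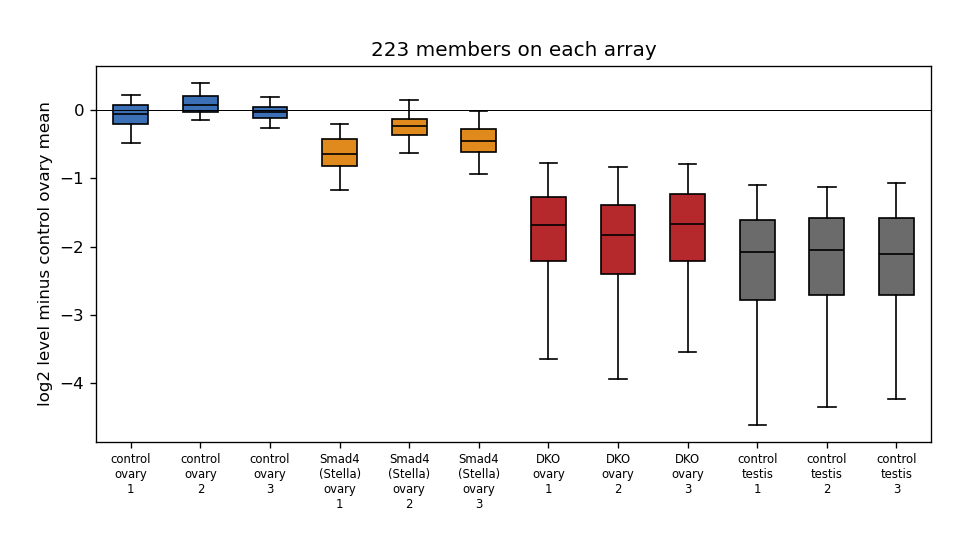
Levels of the 223 members on each of the 12 arrays, as the log2 level minus the mean of the 3 control ovaries of the same gene. Boxes span the quartiles, the line is the median and whiskers reach the 5th and 95th percentiles. The *Smad4 (Stella)* medians lie from -0.64 to -0.23 and the DKO medians from -1.83 to -1.66.

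The step from *Smad4 (Stella)* to DKO ovaries was larger. It shares the DKO arrays with the rule, so its direction and counts are favoured by the choice of members and are given as a description that supports nothing by itself. Called, for members in this step, only names those past the same limits as any other gene, and no p is given for them. The difference had a median of -1.31 over members beside 0.01 over all genes tested, and its range was -5.40 to -0.12. By the same criteria 194 members (87%) were called lower, where 4.03% of all genes tested were, and 0 were called higher, where 4.38% were. The first count was 58 with normexp background correction and 31 by the methods' t-test after adjustment. Every DKO array was below every *Smad4 (Stella)* array for 211 members, beside 14.3% of all genes tested. Within slide 3, which held DKO ovary 3 and the 3 *Smad4 (Stella)* ovaries, the median was -1.18.

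**Figure D3:**
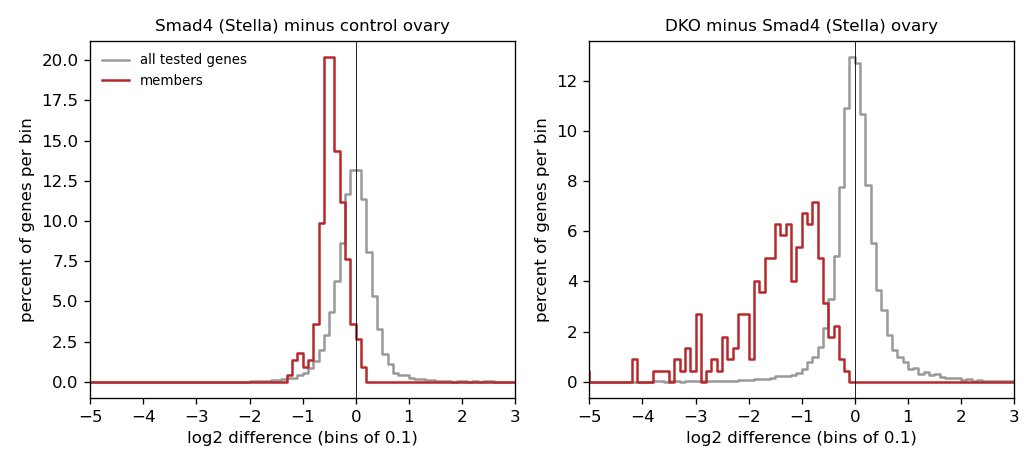
Percent of genes per bin of 0.1 against the log2 difference, for *Smad4 (Stella)* minus control ovaries (left) and DKO minus *Smad4 (Stella)* ovaries (right). The members (red) have medians of -0.45 and -1.31 and all tested genes (grey) of -0.02 and 0.01.

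Set on a scale from control to DKO ovaries, the fall already present in *Smad4 (Stella)* ovaries had a median of 25.3% of the fall in DKO ovaries on the log2 scale. It was under 25% in 110 members, from 25% to 50% in 101 and over 50% in 12. Since the control ovaries enter both falls, this share is a description. The lists of members by function, which hold 119 of the 223, are set out next. Their counts called between DKO and *Smad4 (Stella)* ovaries stand beside 4.03% of all genes tested called lower, and the choice of members favours them. Not every gene of a list was a member. On the arrays were 18 meiotic, 10 MHC, 20 RNA-binding, 30 transcription and chromatin, and 13 cell cycle genes. The metabolic list had 34 there, and the cilium list and the secreted and surface list had 21 each.

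Among genes of the meiotic chromosome and of recombination there were 14 members, of which 13 were called lower in DKO than in *Smad4 (Stella)* ovaries and 0 in *Smad4 (Stella)* than in control ovaries. Their median fall in *Smad4 (Stella)* was 23.9% of that in DKO ovaries. *Meiob*, whose product binds single-stranded DNA in meiotic recombination, stood at 3.72, 3.85 and 3.86 in control ovaries, at 2.82, 3.44 and 3.19 in *Smad4 (Stella)* ovaries, at 0.16, -0.08 and 0.47 in DKO ovaries and at -2.17, -2.23 and -2.16 in testes. The 4 groups did not overlap, and the DKO ovaries stood above the testes. The difference between DKO and *Smad4 (Stella)* ovaries was -2.97 (SE 0.169), and that between *Smad4 (Stella)* and control ovaries was -0.66 (SE 0.169, adjusted p = 0.0927, limma).

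*Dmrtc2*, a DM-domain protein of meiotic cells, stood at 3.42, 3.36 and 3.25 in control ovaries, at 2.48, 3.08 and 2.78 in *Smad4 (Stella)* ovaries and at -1.07, -1.77 and 0.50 in DKO ovaries. Testes were at -1.41, -0.87 and -1.26, within the range of the DKO ovaries. 1700028K03Rik stood at 1.36, 1.38 and 1.33 in control ovaries, at 0.39, 0.99 and 0.67 in *Smad4 (Stella)* ovaries and at -2.20, -2.39 and -2.20 in DKO ovaries. *Xrcc4*, a factor of DNA end joining, was the member of this list not called between DKO and *Smad4 (Stella)* ovaries, with a difference of -0.39. *Brca2*, needed to load recombinases on DNA, was called, with a difference of -0.67.

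Genes of the major histocompatibility complex (MHC), which present peptides at the cell surface, had the lowest median share of the lists, a difference between lists that was not tested. There were 9 members, 8 of class I and *H2-Ab1* of class II. All 9 were called lower in DKO than in *Smad4 (Stella)* ovaries, a count that the choice of members favours. Their median difference between *Smad4 (Stella)* and control ovaries was -0.14, or 6.56% of the fall in DKO ovaries. All *Smad4 (Stella)* arrays lay below all control ovary arrays for 1 of the 9, beside 15.6% of all genes tested. *H2-K1*, a classical class I heavy chain, stood at 1.35, 1.55 and 1.94 in control ovaries, at 1.41, 1.85 and 1.83 in *Smad4 (Stella)* ovaries, at -0.22, -0.68 and -0.60 in DKO ovaries and at -0.85, -0.78 and -0.86 in testes. *H2-Q4* stood at 2.17, 2.41 and 2.35 in control ovaries, at 1.89, 2.39 and 2.24 in *Smad4 (Stella)* ovaries, at 0.07, -0.10 and 0.13 in DKO ovaries and at -0.31, -0.09 and 0.00 in testes. For both genes the *Smad4 (Stella)* arrays overlapped the control arrays and no DKO array reached them.

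*H2-Ab1* showed the largest fall of the 9. It stood at -2.45, -1.81 and -1.86 in control ovaries, at -2.44, -1.76 and -1.98 in *Smad4 (Stella)* ovaries, at -4.99, -5.30 and -5.34 in DKO ovaries and at -5.50, -5.10 and -5.29 in testes. The difference was -0.02 between *Smad4 (Stella)* and control ovaries (SE 0.217, adjusted p = 0.970, limma) and -3.15 between DKO and *Smad4 (Stella)* ovaries (SE 0.217). Class I genes are near-identical in sequence, so that their probes can share signal, and the 9 are not independent. The 4 probes of *H2-K1* differed in the first comparison, from -0.68 to 0.95, while all 4 were lower in DKO than in *Smad4 (Stella)* ovaries, from -3.02 to -1.49. The 4 probes of *H2-Ab1* ranged from -0.22 to 0.16 and from -3.69 to -1.80.

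Of the genes that serve MHC molecules, written as a separate list, 13 were tested, and between DKO and *Smad4 (Stella)* ovaries 1 was called lower and 2 were called higher. The one that was lower was *H2-D1*, itself a class I heavy chain, at -2.0 (adjusted p = 3.44e-05, limma). *B2m*, the light chain of class I molecules, stood at 0.0019, 0.39 and -0.00080 in control ovaries and at 0.39, -0.35 and -0.22 in DKO ovaries, and *Tap1*, *Tap2*, *Psmb8*, *Psmb9* and the class II chaperone *Cd74* were not called either. *H2-M3*, a nonclassical class I heavy chain, and *Irf1*, a regulator of class I genes, were higher in DKO than in *Smad4 (Stella)* ovaries, by 0.74 and 0.87, so that class I heavy chains did not all change in 1 direction. Of 6 macrophage markers, cells that carry class II molecules, 0 were called lower and 1, *Cd68*, was called higher in DKO ovaries, and their summed level was 1.33 to 2.73 in DKO, 1.11 to 1.21 in *Smad4 (Stella)* and 1.16 to 1.57 in control ovaries.

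Genes of RNA-binding and RNA-processing proteins had the highest median share. Of 16 members, 13 were called lower in DKO than in *Smad4 (Stella)* ovaries, the mean of all 16 was lower in *Smad4 (Stella)* than in control ovaries, and the median of -0.48 amounted to 38% of the fall in DKO ovaries, which itself was small, with a median of -1.27. *Boll*, a germ cell translation regulator of the DAZ family, stood at 0.01, -0.16 and -0.13 in control ovaries, at -0.89, -0.46 and -0.82 in *Smad4 (Stella)* ovaries, at -1.96, -2.45 and -2.13 in DKO ovaries and at -3.37, -3.04 and -3.10 in testes. The groups followed each other without overlap. The differences were -0.63 (SE 0.158, adjusted p = 0.0900, limma) for *Smad4 (Stella)* against control ovaries and -1.46 (SE 0.158) for DKO against *Smad4 (Stella)* ovaries. *Adarb1*, an RNA editing enzyme, stood at 1.77, 1.53 and 1.49 in control ovaries, at 0.91, 1.48 and 1.2 in *Smad4 (Stella)* ovaries and at -0.49, -0.97 and -0.55 in DKO ovaries. The members not called in the second step were *Trmt10a*, *Rnf17* and *Nol8*.

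Among transcription factors and chromatin regulators there were 18 members, with 16 called lower in DKO than in *Smad4 (Stella)* ovaries. *Pparg*, a nuclear receptor of lipid metabolism, stood at 0.68, 0.55 and 0.54 in control ovaries, at -0.22, 0.02 and 0.01 in *Smad4 (Stella)* ovaries, at -2.83, -3.19 and -2.97 in DKO ovaries and at -3.36, -3.46 and -3.43 in testes. Its difference between *Smad4 (Stella)* and control ovaries, -0.65 (SE 0.114, adjusted p = 0.0506, limma), fell just short of the threshold. The difference between DKO and *Smad4 (Stella)* ovaries was -2.93 (SE 0.114). *Fhl4*, a LIM-domain protein of germ cells, stood at -1.09, -0.74 and -0.61 in control and at -2.03, -1.54 and -2.20 in *Smad4 (Stella)* ovaries, a difference of -1.11 that did not pass (adjusted p = 0.0756, limma), and stood at -4.01, -4.39 and -3.63 in DKO ovaries.

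The cell cycle and replication list held 8 members, all of them called lower in DKO than in *Smad4 (Stella)* ovaries. *Ccne2*, a cyclin of S phase entry, stood at 0.60, 0.45 and 0.74 in control ovaries, at 0.41, 0.40 and 0.16 in *Smad4 (Stella)* ovaries, at -1.92, -2.02 and -1.61 in DKO ovaries and at -1.74, -2.11 and -2.04 in testes. DKO ovaries and testes overlapped. *Ddb2*, a DNA damage recognition factor, and *Fam72a* had differences of -1.93 and -1.81 between DKO and *Smad4 (Stella)* ovaries.

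The metabolic list was the longest, with 25 members, of which 20 were called in the second step. *Ugt8a*, the enzyme that makes galactosylceramide, stood at -1.77, -1.62 and -1.59 in control ovaries, at -2.47, -1.90 and -2.28 in *Smad4 (Stella)* ovaries, at -5.47, -5.44 and -5.21 in DKO ovaries and at -6.27, -6.64 and -5.48 in testes. *Smpd3*, a sphingomyelinase, *Sgpl1*, sphingosine phosphate lyase, and *Acer3*, a ceramidase, are further enzymes of sphingolipids, with differences of -2.27, -1.38 and -2.05 between DKO and *Smad4 (Stella)* ovaries. The probes of *Smpd3* ranged from -3.66 to -0.77 and those of *Sgpl1* from -2.34 to -0.41 in this comparison. These 4 genes were brought together after their values had been seen. *Acer3* was one of the members whose DKO level was lowest against the testes, with DKO ovaries at -0.98, -1.17 and -1.12 and testes at -0.06, -0.16 and -0.32. *Gys2*, liver glycogen synthase, had the highest share lost, 169%, but its control ovaries stood at -4.04, -1.58 and -1.90, and control ovary 1 lay within the range of the *Smad4 (Stella)* ovaries.

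Of 9 members with products in cilia, centrioles or sperm structures, 8 were called lower in DKO than in *Smad4 (Stella)* ovaries. These 9, out of 21 genes of the list on the arrays, had lost a median of 99.9% of the sex difference. That share is a value the rule used, and it leaves out the genes of the list that were not members. *Tppp*, a tubulin polymerization protein, had a difference of -3.29 and *Iqcb1*, a ciliary protein, one of -1.73. Of 17 members with secreted, surface or synaptic products, 14 were called. Of the X-linked germ line families *Rhox*, *Xlr* and others, 12 genes were on the arrays and 3, *Tex16*, *Rhox11* and *Xlr*, were members. *Xlr* stood at 2.84, 2.61 and 2.61 in control ovaries, at 1.72, 2.45 and 1.70 in *Smad4 (Stella)* ovaries and at 1.03, 0.55 and 1.29 in DKO ovaries.

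**Figure D4:**
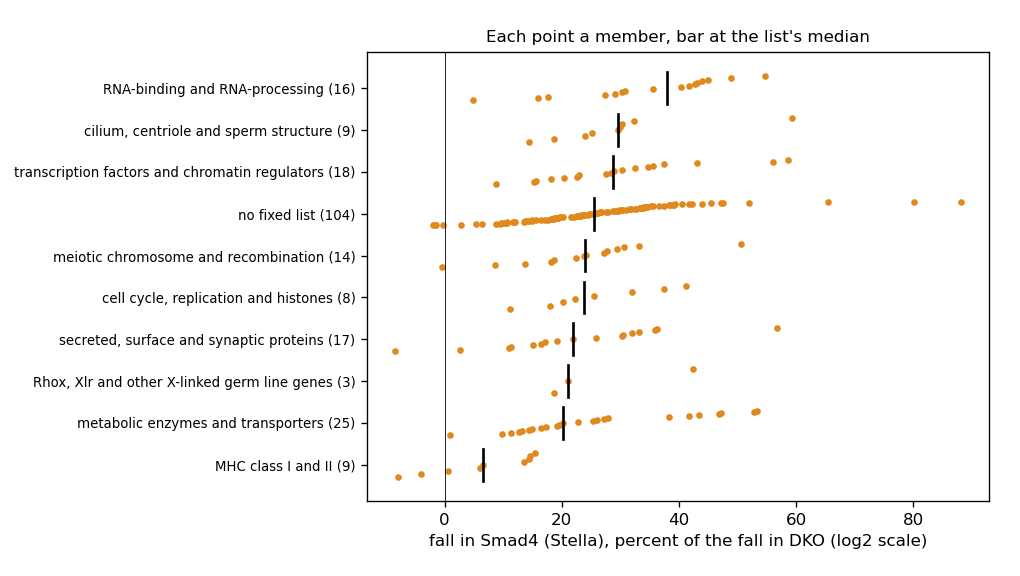
Fall from control to *Smad4 (Stella)* ovaries as a percent of the fall from control to DKO ovaries, on the log2 scale, with 1 point per member, members grouped by list and a bar at each median. The number of members is in parentheses. The median is lowest for the MHC list at 6.56% and highest for the RNA-binding list at 38%.

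Members at both ends of this share were examined further. The smallest falls in *Smad4 (Stella)* belonged to *Unc13a*, a synaptic vesicle priming protein, *H2-D4*, *H2-K1*, *Macrod2* and *Ccdc122*, with differences of 0.17, 0.13, 0.08, 0.03 and 0.03 from control ovaries. All 5 were called lower in DKO than in *Smad4 (Stella)* ovaries, with differences of -2.18, -1.73, -2.20, -1.48 and -1.97. The largest shares belonged to *Fam92b* (*Cibar2*), *Stard6*, *Pex7*, *Morn5* and *Zc3h8*, and none of these 5 was called between DKO and *Smad4 (Stella)* ovaries. The share and this step come from the same means, so a small share goes with a large step. The calls at both ends thus follow from the ranking and are a description. *Stard6*, which encodes a lipid transfer protein of the START family, was the single member called in *Smad4 (Stella)* ovaries. It stood at -2.23, -2.20 and -2.61 in control ovaries, at -3.37, -3.25 and -3.34 in *Smad4 (Stella)* ovaries, at -3.35, -3.78 and -3.56 in DKO ovaries and at -3.59, -3.67 and -3.53 in testes. The *Smad4 (Stella)* arrays overlapped the DKO arrays and not the control arrays. The difference from control ovaries was -0.98 (SE 0.138, adjusted p = 0.0270, limma). The call was lost with normexp background correction (adjusted p = 1.0), with the slide (0.196) or the number of the replicate (0.0680) entered as a block, and without any 1 of the control testes, of the *Smad4 (Stella)* ovaries or of control ovaries 1 and 2, where the adjusted p was 0.0509 to 0.138 (limma).

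**Figure D5:**
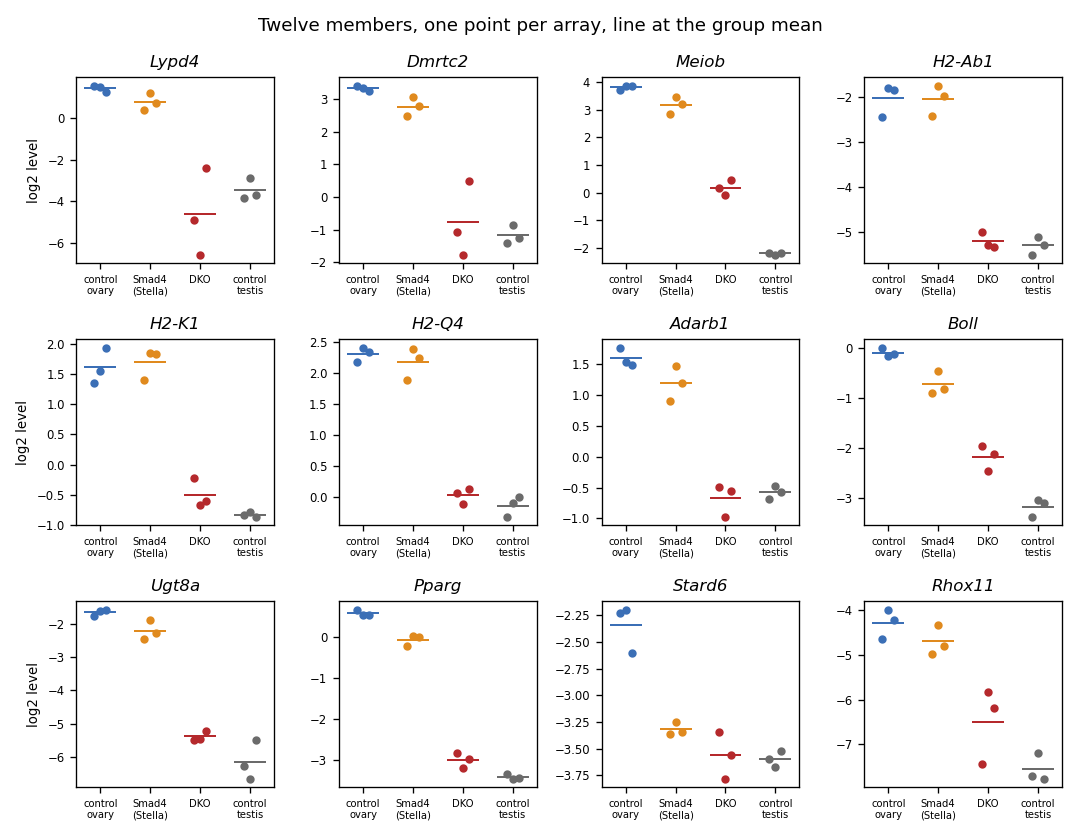
Log2 level of 12 members on each array, with 1 point per array and a line at each group mean, on a separate scale for each gene. *H2-Ab1*, *H2-K1* and *H2-Q4* have overlapping control and *Smad4 (Stella)* points, *Boll* and *Meiob* have 4 separate groups, and *Stard6* has overlapping *Smad4 (Stella)* and DKO points.

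The position of the members in the genome was not used by the rule. Both the rule and the starting list compared XX ovaries with XY testes, however. The share of members on the X chromosome is therefore not independent of their choice, and all genes tested are not a like baseline. A position was known for 219 of the 223 members, and the shares given here are of all genes of a set, with or without a position. On the X chromosome lay 18 members, or 8.07%, beside 3.79% of all genes tested. Another 60 list genes had the same sex difference of at least 1 but lost less than 0.5 of it in DKO ovaries. Of these, 17, or 28.3%, were X-linked, a higher share than among the members. The X-linked members included *Fmr1*, an RNA-binding protein, *Hprt*, of purine salvage, and *Phf8*, a histone demethylase. For these 60 genes the median difference was -0.27 between *Smad4 (Stella)* and control ovaries and -0.50 between DKO and *Smad4 (Stella)* ovaries. In the second step 16 of them were called lower, beside 4.03% of all genes tested.

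The sequences upstream of the members were then examined, as members that fell together. RefSeq start sites on GRCm38.p6 were found for 178 of the 223 members and for 12072 of the genes tested, each as a window of 300 bases with 250 before the start and 50 after it. Short sequences were searched on both strands. The letters TTCCCGC (E2F) were in a window of 31 members (17.4%) and of 9.15% of the tested genes, and CNCCTCAG (STRA8 with MEIOSIN) in 36 (20.2%) and 11.1%. The letters GGCGCC (SMAD) were in 44 (24.7%) and 23.1%, CACGTG (E-box) in 15 (8.43%) and 11.2%, and TGACGTCA (CRE) in 11 (6.18%) and 3.35%. Of all 32851 windows, 4.6% held the E2F letters and 7.94% those of STRA8 with MEIOSIN. Letters of different kinds overlapped in 2 member windows. A match is a description of the letters and shows no binding.

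The 150 bases before the start are shown for 5 members, at the first start listed for each on GRCm38.p6, 5′ to 3′ on the strand of the gene, with matching letters in capitals. *Lypd4* and *Dmrtc2*, with 2 of the deepest falls, start 366 bases apart on opposite strands of chromosome 7 and are shown as a pair. *Pparg* and *Ugt8a* are shown for the letters of STRA8 with MEIOSIN, and *Ccdc122* for the E2F letters, which occur at -97 and at -37.
Lypd4, chr7:24869692-24869841, minus strand: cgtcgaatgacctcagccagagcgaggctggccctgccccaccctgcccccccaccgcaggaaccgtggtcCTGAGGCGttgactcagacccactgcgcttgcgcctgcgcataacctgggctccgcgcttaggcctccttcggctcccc
Dmrtc2, chr7:24869907-24870056, plus strand: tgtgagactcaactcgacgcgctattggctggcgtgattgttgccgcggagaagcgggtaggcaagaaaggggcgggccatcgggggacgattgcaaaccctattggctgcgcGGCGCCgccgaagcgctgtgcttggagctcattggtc
Pparg, chr6:115360994-115361143, plus strand: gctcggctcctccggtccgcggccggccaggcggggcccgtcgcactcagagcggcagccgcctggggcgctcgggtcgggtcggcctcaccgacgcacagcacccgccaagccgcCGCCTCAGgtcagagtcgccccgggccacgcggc
Ugt8a, chr3:125938653-125938802, minus strand: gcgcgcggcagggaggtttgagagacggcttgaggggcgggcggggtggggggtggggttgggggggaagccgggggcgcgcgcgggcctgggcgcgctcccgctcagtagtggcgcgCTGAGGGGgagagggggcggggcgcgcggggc
Ccdc122, chr14:77036622-77036771, plus strand: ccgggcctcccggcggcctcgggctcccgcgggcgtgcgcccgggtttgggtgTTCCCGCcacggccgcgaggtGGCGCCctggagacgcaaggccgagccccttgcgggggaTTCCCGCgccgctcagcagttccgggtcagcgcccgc
The CNCCTCAG letters begin at -34 in *Pparg*, and on the opposite strand at -79 in *Lypd4* and at -32 in *Ugt8a*, and the capitals of *Dmrtc2* at -37 are the SMAD letters, as are those of *Ccdc122* at -76.

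There were 2 further pairs of members that started within 1000 bases of each other on opposite strands. *Eaf2* and *Iqcb1* start 141 bases apart and differed by -1.70 and -1.73 between DKO and *Smad4 (Stella)* ovaries, but the value of *Eaf2* is the mean of 2 probes at -3.31 and -0.096. *Hspb11* and *Lrrc42* start 159 bases apart and differed by -1.28 and -0.71. Of the 178 members with a start site, 46 (25.8%) had such a start of any tested gene opposite them, beside 11.7% of the tested genes.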

How the data were processed

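Cy3-labelled cRNA, made from 0.20 µg RNA of E14.5 gonads, was hybridized to 12 single-colour Agilent arrays, and samples were grouped by their labels. The authors deposited the Feature Extraction 11.0.1.1 output, whose processed intensity is already background-corrected per array, and a matrix of that intensity rounded to 3 significant digits, unscaled and not logged. From the deposited intensity, log2 was taken here and the 75th percentile of the array subtracted, without outlier spots. Probes well above background throughout 1 group or more numbered 27299 of 41174 and were averaged to 18657 genes, whereas members were chosen on all probes. A reference gene was found for 31793 probes, and others kept the array name. Array positions were on mm9 and were not mixed with start sites on GRCm38.p6.

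Groups were compared with limma 3.58.1 (R 4.3.3) in 1 model of 12 arrays without a block. A gene was called at a Benjamini-Hochberg adjusted p under 0.05 and 1.5-fold. With 3 arrays per group, their number limits the precision. Labels did not say that replicates came from separate litters, so p-values measure the spread between these samples. The members, lists and search letters were chosen with earlier results of these data known. The genes named were the 3 of each list with the largest fall in DKO ovaries among those well above background in all control ovaries, the 5 lowest and 5 highest in *Smad4 (Stella)* on a scale from control to DKO ovaries, members called there, the 3 lowest and 3 highest in DKO against testes, and the 2 on either side of each condition. Others were named where a list was described. A fold given as at least a value sets the brighter mean against the higher of the lowest signal well above background and the dim probe's own. In simulated data of 18625 genes, 57 of 100 genes changed by 1 and 84 of 100 changed by 2 on the log2 scale were recovered for *Smad4 (Stella)* against control ovaries, and 69 and 90 for DKO against *Smad4 (Stella)* ovaries, with 9 and 8 false calls. Both runs used the same design and spread, so these values differ by the random draw and do not rank the comparisons. Fewer genes were changed than the 751 lower and 818 higher ones called between DKO and *Smad4 (Stella)* ovaries. Other settings tried were quantile normalization, the unscaled matrix, normexp with an offset of 50, 1 probe per gene, outlier spots kept, other filters and folds, slide or replicate number as blocks, separate fits, the t-test of the methods, and omission of each array.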

Additional observations from a re-analysis of the deposited data

How the results depend on the processing

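No member was called higher, in *Smad4 (Stella)* against control ovaries or in DKO against *Smad4 (Stella)* ovaries, under any setting tried. The single member called lower in *Smad4 (Stella)* ovaries became 0 with the unscaled matrix, normexp, no filter on dim probes, the slide as a block, the groups compared alone, the methods' t-test after adjustment and a 2-fold threshold. It became 4 with probes above background on all arrays and 31 with the methods' t-test before adjustment. Leaving out 1 array gave 0 to 4, with 4 without DKO ovary 1, 3 without control ovary 3, 2 without DKO ovary 2 or 3 and 0 without any other. At an unadjusted p under 0.05 the count of 121 became 4 with the unscaled matrix, 43 with normexp and 73 with the slide as a block. The 194 members called lower in DKO against *Smad4 (Stella)* ovaries became 58 with normexp and 31 with the methods' t-test after adjustment, and were 145 to 199 under the other settings and 164 to 197 with 1 array left out. The median of -0.45 between *Smad4 (Stella)* and control ovaries became -0.027 with the unscaled matrix, where the median of all genes was 0.40, so that the members lay at -0.43 relative to it, as in the reported values. Leaving out 1 array gave -0.57 to -0.34. The median of -1.31 between DKO and *Smad4 (Stella)* ovaries became -1.55 with the unscaled matrix (all genes -0.23), -0.71 with normexp (all genes 0.27) and -1.18 with the slide as a block or within slide 3, and leaving out 1 array gave -1.41 to -1.18. The rule found 223 members, 200 with the unscaled matrix, 150 with normexp and 218 to 231 with 1 array left out. Deviations of arrays with equal replicate numbers correlated at -0.10, -0.03 and -0.02 in the first comparison and 0.13, -0.07 and 0.06 in the second. With 3 arrays per group these values cannot decide whether the numbers pair the samples. With the replicate block 0 and 193 members were called lower.

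For the genes named, the settings for DKO against *Smad4 (Stella)* ovaries were chosen after the data had been seen. Differences between *Smad4 (Stella)* and control ovaries that changed sign had not passed the test. With quantile normalization these were *H2-Ab1* (0.024) and *Slc25a42* (0.0048), with normexp *H2-K1* (-0.034), *Unc13a* (-0.0081), *Macrod2* (-0.065) and *Ccdc122* (-0.043), and with the slide as a block *Slc25a42* (1.18), *Smpd3* (0.28) and *H2-D4* (-0.074). With 1 array left out, *H2-Ab1* ranged from -0.22 to 0.17, *H2-Q4* from -0.25 to 0.0076, *H2-K1* from -0.048 to 0.25, *Slc25a42* from -0.19 to 0.16, *Tgm1* from -0.23 to 0.12, *Unc13a* from -0.12 to 0.38, *Macrod2* from -0.087 to 0.21 and *Ccdc122* from -0.068 to 0.13. Between DKO and *Smad4 (Stella)* ovaries, normexp turned the sign of 5 named genes from lower to higher. It gave *Rhox11* 0.56, *Pabpc6* 0.19, *Fam92b* 0.19, *Stard6* 0.44 and *Gys2* 0.19. *Rhox11* and *Pabpc6* were among those that had been called lower, whereas *Fam92b* and *Stard6* had not been called. With normexp the mean was lower in DKO than in *Smad4 (Stella)* ovaries for 190 members, against all 223 in the reported values. The cause of these changes was not tested. Of 96 members with several probes, all probes were lower in DKO than in *Smad4 (Stella)* ovaries for 94, with *Nfxl1* and *Mkl2* as exceptions, while in 22 of the 96 the probes lay more than 1 apart on the log2 scale.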
